A study of Homo sapiens with 8 samples.

Results

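The TNF ligand and receptor superfamilies comprised 41 of the 28395 genes in the table, chosen by symbol alone: every gene named TNFRSF or TNFSF with a number, together with TNF, LTA, LTB, CD40, CD70, CD27, LTBR, NGFR and EDAR. Of these 41 genes, 26 encode receptors and 15 encode ligands. No measured value entered that naming rule, though the members were chosen with earlier results of these data known. The ligands are trimeric proteins, most of them anchored in the membrane of the cell that makes them, and they bind receptors with cysteine-rich repeats on neighbouring cells. Receptors with a cytoplasmic death domain can assemble complexes that activate caspases, the other signalling receptors recruit TRAF adaptors and activate NF-kB, and decoy receptors bind ligand without signalling. Clear cell kidney cancer is known for its surface expression of CD70, a ligand otherwise found mainly on activated lymphocytes.

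The study profiled polyadenylated RNA of A-498, a human kidney cancer cell line, in 4 derived lines with 2 libraries each. Control 1 and Control 2 each carried a different non-targeting guide RNA and were labelled as wild type controls. ANXA4 KO-1 and ANXA4 KO-2 each carried a different guide RNA against ANXA4, a calcium-dependent membrane-binding annexin. All were grown in the same serum-containing medium for 24 hours after seeding at equal cell numbers, and the labels name no added ligand or drug. Each guide stood for 1 line, so an effect of the guide and a difference between lines cannot be told apart, and whether a line was a clone or a pool is not given in the sources used here.

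The values are normalized read counts, the reads of a gene divided by a scaling factor for its library. Library totals ran from 15784890 to 22631588 reads, and the members together took 0.139% to 0.186% of them. The second library of ANXA4 KO-2 had the fewest reads and the highest member share. Mitochondrially encoded genes took 13.8% of its reads, against 4.67% to 9.05% in the other libraries. The part of this in the results was not tested. The normalized read count of ANXA4, the targeted gene, was 2821 and 3614 in Control 1, 3858 and 6773 in Control 2, 236 and 234 in ANXA4 KO-1, and 3433 and 4142 in ANXA4 KO-2. It was lower in both libraries of ANXA4 KO-1 and lay within the control range in the line labelled ANXA4 KO-2, so every direction given for the latter, and for the 4 KO-labelled libraries together, refers to the label. Of 12 markers of renal epithelium and clear cell kidney cancer, 11 passed the filter on low values, among them PAX8 at 2987 to 4476. CA9 passed at only 2.1 to 24.8, and EPCAM did not pass and never exceeded 9.46. Of 13 leukocyte markers, 2 passed (NCAM1 and ITGAM), CD3E, CD2, CD8A and FCGR3A were at 0 in every library, and PTPRC, which encodes CD45, never exceeded 1.21. The summed leukocyte markers lay at 714 to 1227 in the control libraries and 523 to 699 in the KO-labelled ones. Most of that sum was NCAM1, at 677.5 to 1187 in the controls and 426 to 623 in the KO-labelled libraries. ITGAM went the other way, at 21.8 to 29.4 in the controls and 57.9 to 83.8 in the KO-labelled libraries. None of 4 endothelial markers passed, and CDH5 was at 0. The 4 fibroblast markers, 2 of which passed (PDGFRB and COL1A1), summed to 558 to 1432 in the controls and 182 to 520 in the KO-labelled libraries. Most of that sum was COL1A1, at 177 to 1408 over all libraries, while PDGFRB never exceeded 19.8. The part of these markers in the results was not tested.

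Of the 41 members, 22 (15 receptors and 7 ligands) reached a normalized read count of 10 in at least 2 libraries and were tested, among 14040 such genes. By role these were 5 of 7 receptors with a death domain, 6 of 15 TRAF-binding receptors, all 4 decoy receptors and 7 of 15 ligands. Divided by exon length, the receptor TNFRSF12A stood first, with a mean level over the 8 libraries of 5030.4 per kilobase (3212 to 7451). CD70 came next at 2669 per kilobase (2048 to 3351), without overlap with the ligand TNFSF9 at 860.1 (733 to 1221). The next levels per kilobase, TNFRSF10B at 747, TNFRSF1A at 691, TNFRSF21 at 449.9, TNFRSF11B at 401 and LTBR at 374, were followed by CD40 (237), TNFRSF10D (155) and TNFRSF10A (141). The remaining 11 tested members began with TNFSF12 at 43.8 and TNFRSF9 at 43.7 per kilobase (12.3 to 80.3). Across libraries every pair of neighbours in this order overlapped, except CD70 with TNFSF9 and TNFRSF10A with TNFSF12. The plot of all tested members by library orders them by role.

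**Figure D1:**
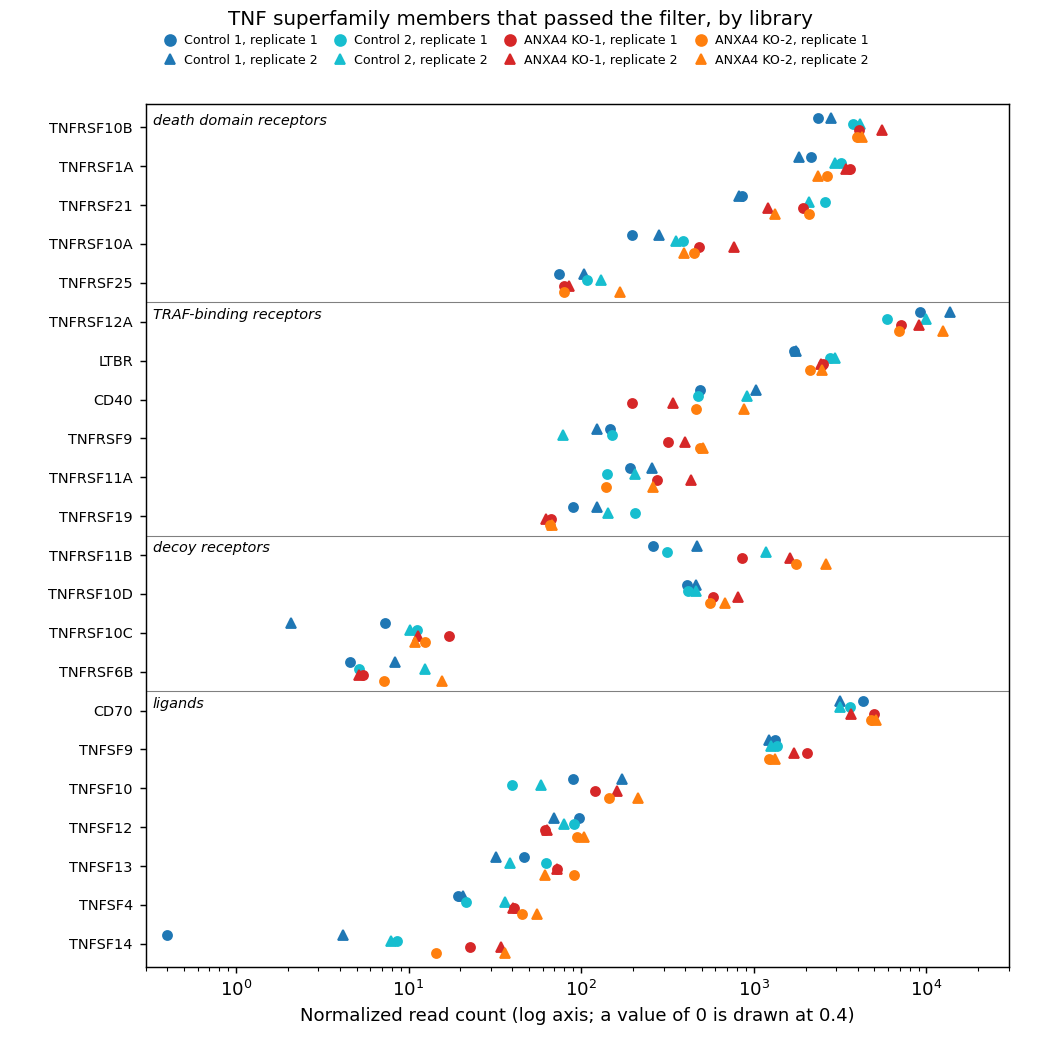
Normalized read count (log axis) of the 22 members that passed the filter, grouped by role; colour marks the line, circles replicate 1 and triangles replicate 2, and a value of 0 is drawn at 0.4. TNFRSF12A lies highest, between 5937 and 13769.9, and the 4 KO-labelled libraries of TNFRSF9 lie right of all 4 control libraries.

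The other 19 members did not pass. Among receptors with some reads, the highest normalized read count in any library was that of CD27 (7.24), TNFRSF13C (10.4), NGFR (12.4), TNFRSF8 (7.74), TNFRSF4 (2.27), TNFRSF17 (2.58), TNFRSF1B (1.21) and TNFRSF18 (1.03). Among ligands the highest values were those of TNFSF15 (13.3), TNFSF13B (3.62), TNFSF18 (2.08) and TNFSF8 (0.783). Of the receptors known from lymphocytes, CD27, TNFRSF4, TNFRSF8, TNFRSF17 and TNFRSF18 never exceeded 7.74, TNFRSF13C reached 10.4, and TNFRSF9 was among the tested members. TNF, LTA, LTB, TNFSF11, TNFRSF13B, TNFRSF14 and EDAR were listed at 0 in all 8 libraries, where a count of 0 allows up to 3 reads of a library's total. For TNF, LTA and LTB this says little, since 14 or 15 of the 20 nearest genes were under 10 in every library, and these included genes that most cells use: DDX39B was listed at 0 throughout and BAG6 never exceeded 11.4. Near TNFRSF14, 8 of 20 neighbours were as low, against 6 near EDAR, 4 near TNFSF11 and 1 near TNFRSF13B. Of the 22 tested members, 11 overlap another annotated gene, among them TNFRSF10B (with TNFRSF10B-AS1 and RHOBTB2), LTBR (SCNN1A), TNFRSF25 (ESPN) and TNFSF4 (PRDX6-AS1). Strand use in counting is not given in the sources used here, so the reads of such pairs may be mixed.

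TNFRSF9, also called CD137, is a TRAF-binding costimulatory receptor best known from activated T cells. It was higher in the KO-labelled libraries than in the controls, the 2 arms of the study. It was the only member of 22 called between the arms, that is with an adjusted p under 0.05, against 0.235% of all tested genes. Its normalized read count was 147 and 124 in Control 1, 151 and 78.2 in Control 2, 319 and 399 in ANXA4 KO-1, and 485 and 508 in ANXA4 KO-2. The 4 KO-labelled libraries all lay above the 4 controls, with means of 428 ± 86.2 and 125 ± 33.6 (SD, n = 4 libraries from 2 lines each), a ratio of 3.42. In bulk RNA a larger share of cells with the transcript and more transcript per cell cannot be told apart. On the log2(value + 1) scale used for all fitted changes, which understates those of low genes, the change was 1.79 (SE 0.29, limma adjusted p = 0.0371). Blocking on the replicate number gave an adjusted p of 0.0825 and left no member called, against 0.264% of genes, and over the 4 line means the adjusted p was 0.387. The call was also lost without either library of Control 1, ANXA4 KO-1 replicate 2 or either library of ANXA4 KO-2, with adjusted p from 0.0542 to 0.259. Within replicate 1 alone the log2 change was 1.39 and within replicate 2 it was 2.18. Its ligand TNFSF9 was far more abundant per kilobase, and its values were 1334 and 1221 in Control 1, 1355 and 1261 in Control 2, 2033 and 1699 in ANXA4 KO-1, and 1223 and 1329 in ANXA4 KO-2. Only ANXA4 KO-1 stood above the controls, and the arms overlapped, with a log2 change of 0.25 (SE 0.18, adjusted p = 0.653) in limma. The T cell markers CD3E, CD2 and CD8A were at 0 in every library.

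TNFRSF9 lies on chromosome 1 from 7915871 to 7940839, on the minus strand (RefSeq, GRCh38.p14). The 250 bases before its RefSeq start are shown because they and the corresponding bases of TNFSF14 were the only windows among the tested members that held both a match to the kappaB consensus, the 10-base element bound by NF-kB, and TGANTCA, the element bound by AP-1 factors. Both strands were searched, and capitals mark the matches, which for kappaB include overlapping matches on the opposite strand.
TNFRSF9, chr1:7940840-7941089, minus strand: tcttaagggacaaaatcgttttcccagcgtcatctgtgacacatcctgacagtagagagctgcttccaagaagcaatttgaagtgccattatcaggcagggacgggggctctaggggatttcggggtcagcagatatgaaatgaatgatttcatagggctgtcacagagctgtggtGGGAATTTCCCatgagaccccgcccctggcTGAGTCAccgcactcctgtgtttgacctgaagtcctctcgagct
TNFSF14, chr19:6670161-6670410, minus strand: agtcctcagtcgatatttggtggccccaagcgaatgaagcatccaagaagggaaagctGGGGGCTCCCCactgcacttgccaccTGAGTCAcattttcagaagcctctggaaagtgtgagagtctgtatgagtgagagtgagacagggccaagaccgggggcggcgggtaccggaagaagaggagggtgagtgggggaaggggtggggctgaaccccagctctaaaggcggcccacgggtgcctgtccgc
Over 35116 RefSeq windows of the same length, 9.96% held the kappaB consensus, 6.57% held TGANTCA and 0.493% held both. Of the 22 tested members 13 had such a window, and TNFSF14, TNFRSF19 and TNFSF13 had 2 each. A member was counted if any of its windows matched, whereas the percentages are per window. The kappaB consensus was matched in 4 of these (TNFRSF9, TNFSF14, TNFRSF19 and TNFSF13), one of which, TNFRSF19, was lower in both KO-labelled lines. In TNFRSF9 the kappaB match began 74 and TGAGTCA 44 bases before the start, and in TNFSF14 these lay 192 and 166 bases before the start used. The annotated gene TNFSF14 spans 6661253 to 6670588, so its window lies inside the gene. The matched window of TNFRSF19, 23579110 to 23579409 on chromosome 13, also lies inside its gene, which spans 23570412 to 23676093. All these are matches of letters, and binding was not measured.

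For 6 of the 22 members, TNFSF14 included, the KO-labelled and control libraries did not overlap, as for 10.6% of all tested genes. Those with higher KO-labelled values were TNFRSF9, TNFRSF10A, TNFRSF10D, TNFSF4 and TNFSF14, where 5.11% of genes did the same. TNFSF14 passed the filter through its KO-labelled values alone, so it had to differ, and without it these were 4 of 21. TNFRSF19 was the 1 member with lower values, against 5.51% of genes. Apart from TNFRSF9, no member passed limma's test of the 4 KO-labelled against the 4 control libraries: the other 21 had log2 changes from -1.02 to 2.52 and adjusted p from 0.186 to 0.977. Of all 22, 9 had an unadjusted p under 0.05, TNFSF14 among them, against 11.5% of genes. A limma fit took the mean of the 2 lines of each arm with the spread between libraries of a line. Differences between lines were thus not counted as error, and this fit called 9 members. On recovered reads, edgeR's quasi-likelihood test also called 9 and DESeq2 called 8, both likewise with a mean per line. All 9 calls of that fit and of edgeR were the same genes: TNFRSF9, TNFRSF10A, TNFRSF10B, TNFRSF10D, TNFRSF11B, TNFRSF19, TNFSF4, TNFSF10 and TNFSF14. The corresponding backgrounds were 10.5%, 10.5% and 12.6% of genes. The member counts of these fits, DESeq2 included, all hold TNFSF14, which had to differ to pass the filter.

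**Figure D2:**
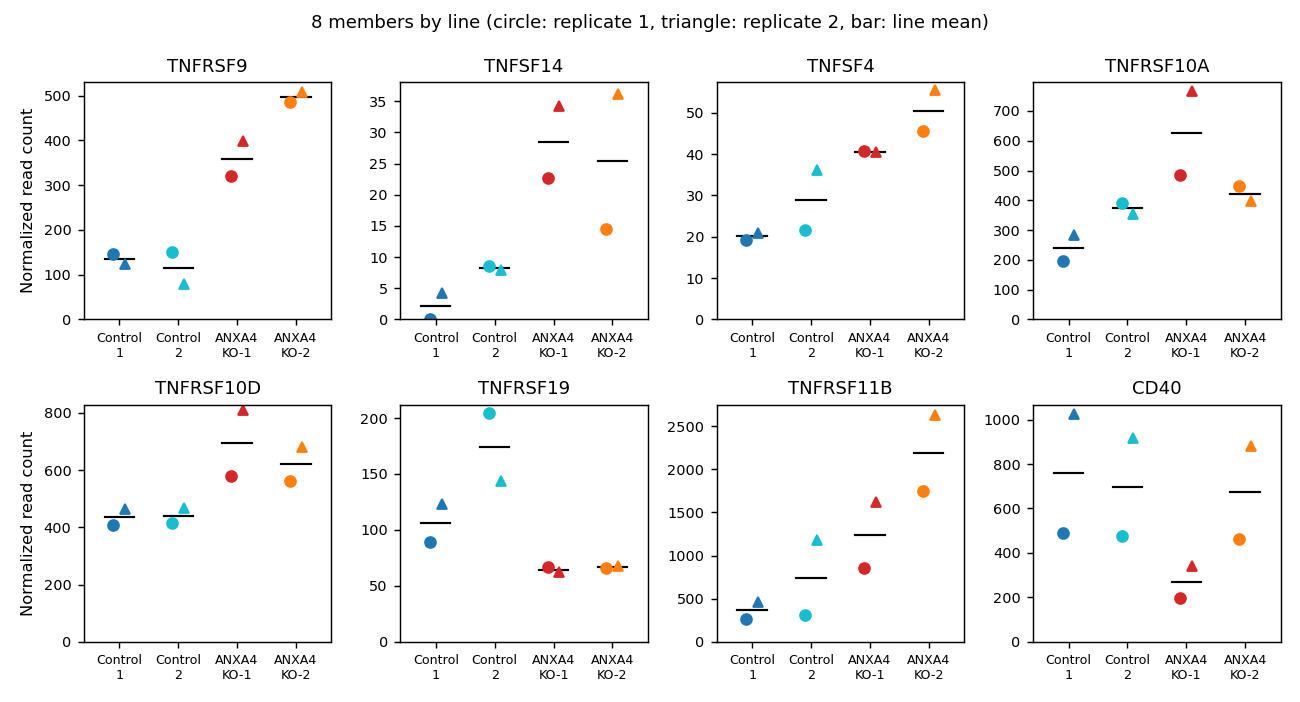
Normalized read count (linear axis from 0) of 8 members in each library by line; circles are replicate 1, triangles replicate 2 and bars the line mean. For TNFRSF9, TNFSF14, TNFSF4, TNFRSF10A and TNFRSF10D every KO-labelled library lies above every control library, for TNFRSF19 below, and for TNFRSF11B and CD40 they overlap.

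Among receptors with a death domain, TNFRSF10A and TNFRSF10B are the signalling receptors of TNFSF10 (TRAIL). TNFRSF10A rose in ANXA4 KO-1, and its normalized read count was 196 and 282 in Control 1, 391 and 353 in Control 2, 484 and 768 in ANXA4 KO-1, and 448 and 396 in ANXA4 KO-2. Control 1 lay lowest, and the lowest KO-labelled library, the second of ANXA4 KO-2, stood just above the highest control. The log2 change of ANXA4 KO-1 against both controls was 1.04 (SE 0.22, adjusted p = 0.0267), and it lost its call without Control 1 replicate 1, Control 2 replicate 2 or ANXA4 KO-1 replicate 2, with adjusted p from 0.0578 to 0.234. In the line labelled ANXA4 KO-2 it was 0.51 (SE 0.22, adjusted p = 0.172), or 0.0458 with the replicate block. TNFRSF10B was more abundant, with 2341 and 2791 in Control 1, 3745 and 4142 in Control 2, 4065 and 5558 in ANXA4 KO-1, and 3936 and 4236 in ANXA4 KO-2. Control 1 was again lowest, and Control 2 overlapped with both KO-labelled lines. Its log2 change in ANXA4 KO-1 was 0.58 (SE 0.15, adjusted p = 0.0535), and 0.00137 with the replicate block. In the line labelled ANXA4 KO-2 the change was 0.36 (SE 0.15, adjusted p = 0.161), and 0.0162 with that block. TNFRSF10D, a membrane decoy for the same ligand, had 409 and 464 in Control 1, 416 and 466 in Control 2, 579 and 808 in ANXA4 KO-1, and 561 and 681 in ANXA4 KO-2. Every KO-labelled library lay above every control, with log2 changes of 0.64 (SE 0.17, adjusted p = 0.0559) in ANXA4 KO-1 and 0.50 (SE 0.17, adjusted p = 0.0958) in ANXA4 KO-2, or adjusted p = 0.0016 and 0.00604 with the block. The decoy TNFRSF10C stayed at low counts, from 2.08 to 17.2. The ligand TNFSF10 had 90.1 and 172 in Control 1, 39.6 and 58.9 in Control 2, 121 and 162 in ANXA4 KO-1, and 145 and 214 in ANXA4 KO-2. Control 2 lay lowest and the second library of Control 1 stood among the KO-labelled values. TNFSF10 rose in the line labelled ANXA4 KO-2, by 1.17 (SE 0.31, adjusted p = 0.044) on the log2 scale, and lost its call without Control 1 replicate 1, Control 2 replicate 1, either library of ANXA4 KO-1 or either library of ANXA4 KO-2, with adjusted p from 0.0622 to 0.203, and with no filter on low values (0.0617). In ANXA4 KO-1 the change was 0.84 (SE 0.31, adjusted p = 0.142), and 0.00383 with the block. TNFRSF10A, TNFRSF10B, TNFRSF10C, TNFRSF10D and TNFRSF11B all lie on chromosome 8, whose 501 tested genes had a median log2 change of 0.29 in ANXA4 KO-1 and 0.12 in ANXA4 KO-2 against the controls, and of 0.17 between Control 2 and Control 1. Over all tested genes those medians were -0.000869, 0.0096 and -0.00107. The part of that shift in the members' changes was not tested.

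TNFRSF1A, the main signalling receptor of TNF, rose in ANXA4 KO-1 by 0.51 (SE 0.12, adjusted p = 0.0383) on the log2 scale. Its normalized read count was 2147 and 1831 in Control 1, 3183 and 2956 in Control 2, 3616 and 3415 in ANXA4 KO-1, and 2640.3 and 2355 in ANXA4 KO-2. Control 1 lay lowest and ANXA4 KO-1 highest, while Control 2 stood above ANXA4 KO-2. The call was lost without either library of Control 1, either library of Control 2 or either library of ANXA4 KO-1, with adjusted p from 0.0513 to 0.25, and with no filter on low values (0.0512). Against Control 1, Control 2 was higher by 0.63 (SE 0.14, adjusted p = 0.0549), and 0.00229 with the replicate block. TNFRSF21, a receptor known as DR6, rose between the control lines themselves, by 1.48 (SE 0.26, adjusted p = 0.0325) from Control 1 to Control 2. It had 852 and 818 in Control 1, 2597 and 2098 in Control 2, 1938 and 1214 in ANXA4 KO-1, and 2092 and 1328 in ANXA4 KO-2. Control 1 stood below the other 3 lines and Control 2 just above the KO-labelled lines, which overlapped each other. The call was lost without either library of Control 1 or either library of Control 2, with adjusted p from 0.0836 to 0.233. TNFRSF25, known as DR3, had 74.5 and 104 in Control 1, 108 and 130.3 in Control 2, 79.9 and 85.1 in ANXA4 KO-1, and 79.6 and 169 in ANXA4 KO-2. The second library of ANXA4 KO-2 stood highest, the other libraries overlapped, and it was called in none of the 5 comparisons.

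TNFRSF11B encodes osteoprotegerin, a secreted decoy that binds TNFSF11 (RANKL) and TNFSF10. It rose in the line labelled ANXA4 KO-2. Its normalized read count was 260.2 and 467 in Control 1, 312 and 1176 in Control 2, 853 and 1623 in ANXA4 KO-1, and 1751 and 2630.4 in ANXA4 KO-2. Control 1 and the first library of Control 2 were lowest, both libraries of ANXA4 KO-2 were highest, and the second library of Control 2 stood above the first of ANXA4 KO-1. Against both controls the log2 change was 2.22 (SE 0.50, adjusted p = 0.0236) in ANXA4 KO-2, and the call was lost without Control 1 replicate 1 or either library of ANXA4 KO-2, with adjusted p from 0.0577 to 0.116. In ANXA4 KO-1 it was 1.35 (SE 0.50, adjusted p = 0.14), and 0.000555 with the replicate block. TNFRSF11A, the receptor RANK, had 192 and 259 in Control 1, 140.2 and 204 in Control 2, 276 and 432 in ANXA4 KO-1, and 139 and 261 in ANXA4 KO-2. Both libraries of ANXA4 KO-1 stood above the other 3 lines, which overlapped. Its log2 change in ANXA4 KO-1 was 0.82 (SE 0.30, adjusted p = 0.138), and 0.00143 with the block. TNFSF11, the ligand they share, was listed at 0 in every library. The remaining soluble decoy, TNFRSF6B, ranged from 4.60 to 15.7, and its reads cannot be separated here from the overlapping RTEL1-TNFRSF6B and ARFRP1.

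Of the TRAF-binding receptors, TNFRSF19 fell in both KO-labelled lines, one of 2 members with TNFRSF9 called in both. TNFRSF19, known as TROY, had 89.2 and 123 in Control 1, 205 and 144 in Control 2, 66.5 and 62.2 in ANXA4 KO-1, and 66.2 and 67.6 in ANXA4 KO-2. The 4 KO-labelled libraries lay within a narrow range, below all controls, and the controls differed among themselves by more. It fell in ANXA4 KO-1 by 1.05 on the log2 scale (SE 0.22, adjusted p = 0.0272), and this call was lost without Control 1 replicate 2, Control 2 replicate 1 or either library of ANXA4 KO-1, with adjusted p from 0.0521 to 0.195. In ANXA4 KO-2 it fell by 0.99 (SE 0.22, adjusted p = 0.0224), a call lost without Control 1 replicate 2, Control 2 replicate 1 or either library of ANXA4 KO-2, with adjusted p from 0.0542 to 0.0807. CD40, the receptor through which helper T cells activate antigen-presenting cells, had 491 and 1025 in Control 1, 476 and 918 in Control 2, 198 and 341 in ANXA4 KO-1, and 464 and 881 in ANXA4 KO-2. ANXA4 KO-1 lay below the other 3 lines in both replicates, and within each line replicate 2 was the higher. The log2 change of CD40 in ANXA4 KO-1 was -1.39 (SE 0.40, adjusted p = 0.0719) in the fit without a replicate term, and with the block its adjusted p was 4.41e-06. Between the KO-labelled lines it was 1.30 (SE 0.46, adjusted p = 0.13), and 4.00e-05 with the block. LTBR, the lymphotoxin receptor, was higher in Control 2 than in Control 1 by 0.72 (SE 0.13, adjusted p = 0.0325). It had 1712 and 1758 in Control 1, 2777 and 2960.4 in Control 2, 2529 and 2438 in ANXA4 KO-1, and 2124 and 2476 in ANXA4 KO-2. Both KO-labelled lines lay between the control lines, and the call was lost without either library of Control 1, either library of Control 2 or either library of ANXA4 KO-1, with adjusted p from 0.0751 to 0.232. TNFRSF12A (Fn14), the receptor of TNFSF12, had 9218 and 13769.9 in Control 1, 5937 and 9936 in Control 2, 7102 and 9036 in ANXA4 KO-1, and 6911 and 12460.2 in ANXA4 KO-2. Its arms overlapped throughout and replicate 2 was higher in each line. Its log2 change over the arms was -0.11 (SE 0.33, adjusted p = 0.949).

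Among the ligands, CD70 had 4292 and 3144 in Control 1, 3627 and 3137 in Control 2, 4945 and 3667 in ANXA4 KO-1, and 4767 and 5134 in ANXA4 KO-2. The 2 libraries of ANXA4 KO-2 lay within the upper part of the range. In that line the log2 change against both controls was 0.49 (SE 0.17, adjusted p = 0.101), and 0.00843 with the replicate block. CD27, its receptor, reached at most 7.24. TNFSF4, the ligand of TNFRSF4 (OX40), rose in the line labelled ANXA4 KO-2. It had 19.3 and 20.8 in Control 1, 21.5 and 36.3 in Control 2, 40.7 and 40.5 in ANXA4 KO-1, and 45.5 and 55.5 in ANXA4 KO-2. The KO-labelled libraries lay above all controls, with the second library of Control 2 the nearest. The log2 change in ANXA4 KO-2 was 1.05 (SE 0.28, adjusted p = 0.0457) and in ANXA4 KO-1 0.75 (SE 0.28, adjusted p = 0.148). The call was lost without either library of Control 1, Control 2 replicate 1, either library of ANXA4 KO-1 or either library of ANXA4 KO-2, with adjusted p from 0.0802 to 0.181, in DESeq2 (0.0737) and with no filter on low values (0.0879). TNFSF14 (LIGHT), a ligand of LTBR and TNFRSF14, rose in ANXA4 KO-1. It had 0 and 4.16 in Control 1, 8.60 and 7.93 in Control 2, 22.7 and 34.2 in ANXA4 KO-1, and 14.5 and 36.2 in ANXA4 KO-2. It passed the filter through the KO-labelled libraries alone, so that a difference was bound to follow, and its control values rest on few reads. In ANXA4 KO-1 the log2 change was 2.66 (SE 0.66, adjusted p = 0.048), and the call was lost without Control 1 replicate 1, either library of Control 2 or either library of ANXA4 KO-1, with adjusted p from 0.0671 to 0.3, with a pseudocount of 0.1 (0.124) and with no filter (0.0662). In ANXA4 KO-2 it was 2.39 (SE 0.66, adjusted p = 0.0517), and 0.00386 with the block. TNFSF12 (TWEAK) ranged from 61.8 to 104 and TNFSF13 (APRIL) from 32.2 to 91.0. These neighbours on chromosome 17 share the readthrough gene TNFSF12-TNFSF13, so their separate counts are uncertain. TNFSF13 had log2 changes of 0.72 (SE 0.29, adjusted p = 0.17) in ANXA4 KO-1 and 0.76 (SE 0.29, adjusted p = 0.13) in ANXA4 KO-2, or 0.0301 and 0.0207 with the block.

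Set against both controls, ANXA4 KO-1 differed in 6 members and the line labelled ANXA4 KO-2 in 5, with 9 different members called in one or the other and 2 in both. These comparisons share their control libraries. In ANXA4 KO-1 the receptors TNFRSF9, TNFRSF10A and TNFRSF1A and the ligands TNFSF9 and TNFSF14 rose and TNFRSF19 fell, where 7.01% of all tested genes were called, 3.82% higher and 3.18% lower. Without TNFSF14, which had to differ to pass the filter, 5 of 21 members were called. In ANXA4 KO-2 the receptors TNFRSF9 and TNFRSF11B and the ligands TNFSF10 and TNFSF4 rose and TNFRSF19 fell, 5 of 22 against 11.2% of genes, with 4.54% higher and 6.67% lower. TNFRSF9 changed by 1.55 (SE 0.25, adjusted p = 0.01) in ANXA4 KO-1 and by 2.03 (SE 0.25, adjusted p = 0.0026) in ANXA4 KO-2. The first call was lost without either library of ANXA4 KO-1, with adjusted p from 0.073 to 0.121, while the second held in each of the 16 alternatives run. TNFSF9, its ligand, rose in ANXA4 KO-1 by 0.52 (SE 0.12, adjusted p = 0.0383), a call lost without either library of Control 1, either library of Control 2 or either library of ANXA4 KO-1, with adjusted p from 0.0514 to 0.297, and its change in ANXA4 KO-2 was -0.02 (SE 0.12, adjusted p = 0.945). The median log2 change of the 22 tested members, TNFSF14 included, was 0.55 in ANXA4 KO-1 and 0.43 in ANXA4 KO-2, beside -0.000869 and 0.0096 over all tested genes. It was 0.38 between Control 2 and Control 1, beside -0.00107 over all genes, and 0.23 between replicate 2 and replicate 1.

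**Figure D3:**
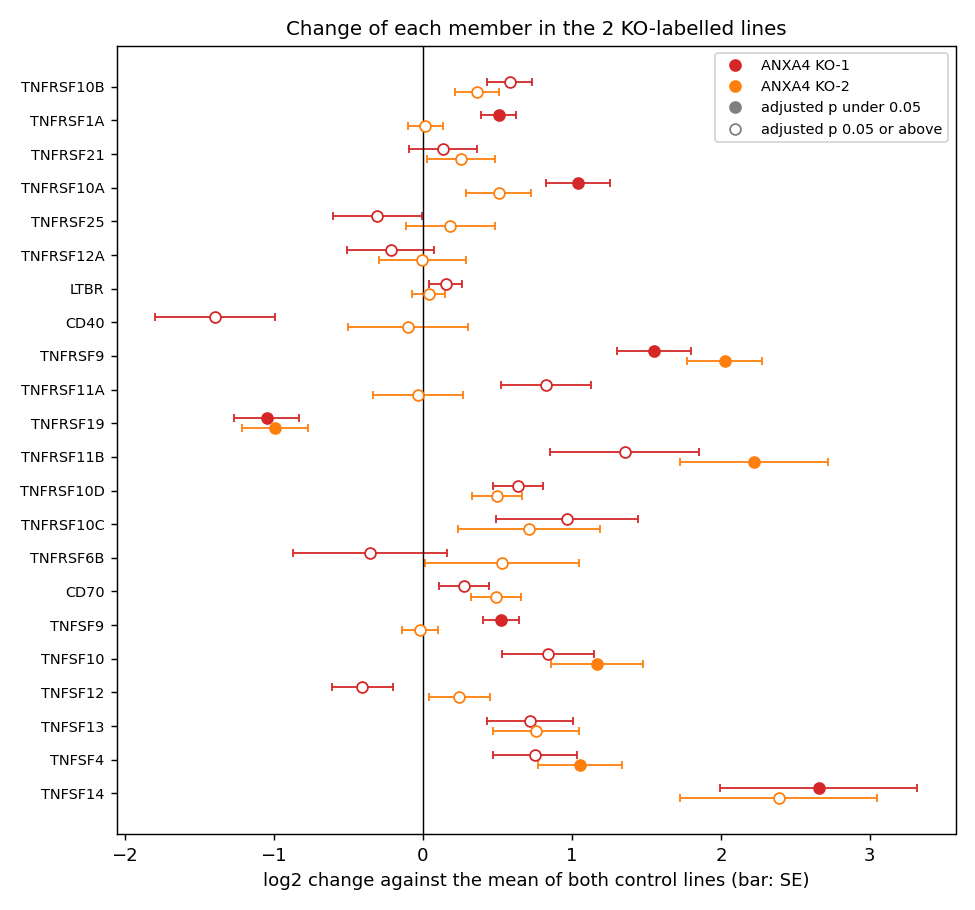
The log2 change (x axis) of each of the 22 tested members in each KO-labelled line against the mean of both control lines, with bars for the SE; filled points had limma adjusted p under 0.05. TNFRSF9 (1.55 and 2.03) and TNFRSF19 (-1.05 and -0.99) are filled for both lines.

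The difference between the KO-labelled lines themselves was not called for any member by edgeR, which called 920 of 14040 genes. DESeq2 called 2 members and 1394 of these genes. Limma called no member and 6.94% of all genes, and 5 of 22 members had an unadjusted p under 0.05, against 24.2% of genes. Control 2 against Control 1 gave 2 calls, TNFRSF21 and LTBR, against 2.13% of genes. Blocking on the replicate number raised the counts to 13 in ANXA4 KO-1, where 11 were higher, to 11 in ANXA4 KO-2, where 10 were higher, to 9 between the controls and to 6 between the KO-labelled lines. TNFSF14 was among the higher members in both KO-labelled lines. The backgrounds rose with them, to 24.4%, 27.4%, 12.5% and 24.5% of genes, with 13.0% higher in ANXA4 KO-1 and 12.5% in ANXA4 KO-2. The members gained between the controls under the block were TNFRSF1A, TNFRSF10A (log2 change 0.66, 0.0493), TNFRSF11B (0.80, 0.0414), TNFRSF12A (-0.55, 0.0157), TNFRSF10B (0.62, 0.00424), TNFSF10 (-1.35, 0.00114) and TNFSF14 (2.03, 0.0377), each with its adjusted p after the log2 change. TNFSF10 and TNFRSF12A were lower in Control 2 and the others higher. Gained between the KO-labelled lines were CD40, TNFRSF11A (-0.86, 0.00298), TNFRSF1A (-0.49, 0.00487), TNFSF9 (-0.54, 0.00589), TNFRSF11B (0.87, 0.0172) and TNFSF12 (0.65, 0.0489).

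Downstream of the receptors, NF-kB is a set of dimeric transcription factors held in the cytoplasm by inhibitors of the IkB family, some of which it induces itself. All 10 subunits and inhibitors examined were tested. NFKBIA, encoding the inhibitor IkB-alpha, rose in the KO-labelled libraries, with normalized read counts of 521 and 494 in Control 1, 534 and 458 in Control 2, 1048 and 1119 in ANXA4 KO-1, and 1054 and 998 in ANXA4 KO-2. No KO-labelled library overlapped with a control, and the log2 change was 1.07 (SE 0.14, adjusted p = 0.0121). NFKBIA was the only 1 of the 10 called between the arms, against 0.235% of all tested genes. This call was lost without ANXA4 KO-2 replicate 1 (adjusted p = 0.0874). In ANXA4 KO-1, 5 rose and none fell: NFKB2, NFKBIA, NFKBIE, REL and RELB, by 0.56 to 1.11 on the log2 scale, where 7.01% of all tested genes were called and 3.82% were higher. In ANXA4 KO-2 the same genes without REL rose, 4 of 10, by 0.70 to 1.03, against 11.2% of genes called and 4.54% higher. With the replicate block 7 were higher in each line and 0 lower, against 24.4% and 27.4% of genes called, and 13.0% and 12.5% higher. The calls of NFKBIA in both lines, and of NFKB2 and NFKBIE in ANXA4 KO-2, held without any 1 library, and the others were lost in 2 to 6 of 8 such fits, with adjusted p up to 0.324. The median of the 10 genes was 0.55 and 0.68 in these lines. Of 38 adaptors and regulators that act at the receptors, 37 were tested, and 0 were called over the arms, where 6 of 37 had an unadjusted p under 0.05, near the 11.5% of all genes. In ANXA4 KO-1, 4 of 37 rose and 0 fell, against 7.01% of genes called and 3.82% higher. With the replicate block 11 were higher and 1 lower, against 24.4% of genes called and 13.0% higher. The 4 without the block were BIRC3, a ubiquitin ligase of TRAF complexes, by 1.41 (adjusted p = 0.000714), TNFAIP3, the deubiquitinase A20, by 1.37 (adjusted p = 0.0124), the adaptor TRAF1 by 1.12 (adjusted p = 0.0245), and the kinase IKBKB by 0.73 (adjusted p = 0.0153). In ANXA4 KO-2, 5 of 37 rose and 0 fell, against 11.2% of all genes called and 4.54% higher. With the block 8 were higher and 2 lower, against 27.4% of genes called and 12.5% higher. The 5 without the block were BIRC3 by 0.88 (adjusted p = 0.00357), TNFAIP3 by 1.31 (adjusted p = 0.00981), TRAF1 by 0.83 (adjusted p = 0.0473), IKBKB by 0.81 (adjusted p = 0.00665) and the death domain adaptor TRADD by 0.52 (adjusted p = 0.0306). BIRC3 and IKBKB also rose from Control 1 to Control 2, by 0.87 (adjusted p = 0.0233) and 0.75 (adjusted p = 0.0437), where 2.13% of genes were called. With the block 4 of the list were higher there and 3 lower, against 12.5% of genes called. The ubiquitin ligase RBCK1 was the 1 gene of 37 called between the KO-labelled lines, where 6.94% of genes were called. It was higher in ANXA4 KO-2 by 0.62 (adjusted p = 0.0281). With the block 1 gene of the list was higher and 6 lower, against 24.5% of genes called. Without any 1 library, BIRC3 held in both KO-labelled lines and IKBKB and TNFAIP3 held in ANXA4 KO-2. TNFAIP3 in ANXA4 KO-1 was lost without ANXA4 KO-1 replicate 2 (0.112), and the other calls of this list were each lost in 3 to 6 of 8 such fits, with adjusted p up to 0.264. The median of the 37 was 0.15 in ANXA4 KO-1 and 0.02 in ANXA4 KO-2.

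ADAM10 and ADAM17 cut several members from the cell surface. Of these proteases and their partners, 5 of 5 were tested and 1 was called, between the KO-labelled lines, where 6.94% of all genes were called. This was ADAM17, lower in ANXA4 KO-2 than in ANXA4 KO-1 by a log2 change of -1.16 (adjusted p = 0.024). Its counts in the line labelled ANXA4 KO-2 were 940.1 and 821, below all other libraries, and the call was lost without either library of ANXA4 KO-1 or ANXA4 KO-2 replicate 2, with adjusted p up to 0.162. With the replicate block 1 of the 5 was higher in ANXA4 KO-1 against the controls, where 24.4% of genes were called and 13.0% were higher. In ANXA4 KO-2 1 was higher and 1 lower with that block, against 27.4% of genes called. Of the 6 superfamily genes whose symbols lie outside the naming rule, such as FAS and RELT, 4 were tested and none was called in limma in the 5 comparisons. At unadjusted p under 0.05 in limma there was 1 of 4, in ANXA4 KO-1, where 3363 of all 14040 tested genes had such a p. FAS, the death receptor of FASLG, had log2 changes of 0.34 (adjusted p = 0.364) in ANXA4 KO-1 and 0.30 (adjusted p = 0.406) in ANXA4 KO-2, or adjusted p = 0.0322 and 0.0452 with the replicate block.

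Several members moved with the replicate number, a comparison added after the values had been seen. CD40, TNFRSF11A, TNFRSF11B, TNFRSF12A and TNFSF10 were higher in replicate 2 and TNFRSF21 was lower, 6 of 22, against 17.6% of all tested genes (8.97% higher and 8.62% lower). CD40 in replicate 2 was 2.09, 1.93, 1.72 and 1.90 times its replicate 1 level in Control 1, Control 2, ANXA4 KO-1 and ANXA4 KO-2 in turn, with a log2 change of 0.93 (SE 0.09, adjusted p = 0.000169). TNFRSF11B had ratios of 1.79, 3.77, 1.90 and 1.50 in the same order and a log2 change of 1.07 (SE 0.16, adjusted p = 0.00213). TNFRSF12A had ratios of 1.49, 1.67, 1.27 and 1.80 and a change of 0.63 (SE 0.09, adjusted p = 0.00164). TNFRSF21 was at 0.960, 0.808, 0.626 and 0.635 times, a change of -0.42 (SE 0.10, adjusted p = 0.0172). Over the arms, the log2 changes of CD40 and TNFRSF12A were -0.75 and -0.11. What the replicate number stands for is not given in the labels.

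**Figure D4:**
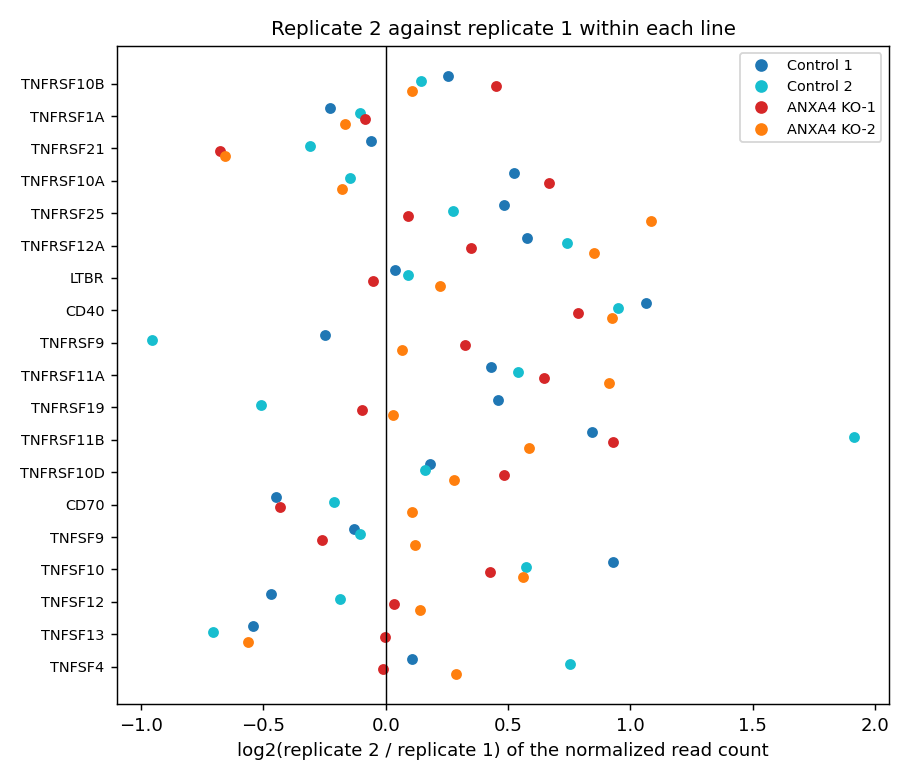
The log2 ratio (x axis) of the normalized read count in replicate 2 to that in replicate 1 within each of the 4 lines, for 19 tested members. All 4 points of CD40, TNFRSF11A, TNFRSF11B, TNFRSF12A and TNFSF10 lie above 0, and all 4 of TNFRSF21 lie below.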

How the data were processed

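Polyadenylated RNA was sequenced from 8 libraries, 2 from each of 4 A-498 lines. The submitters' processing notes name fastp 0.23.2, HISAT2 2.2.1, featureCounts 2.0.1, DESeq2 2.11.40.8 and hg38/GRCh38, with no roles given. The deposited values are a signal, gene read counts divided by a scaling factor per library, as the authors' table shows: 100% of the values were whole reads after multiplication by 1 factor per library (tolerance 1e-06), and these factors equalled DESeq2 size factors within 8.91e-11. Entrez IDs were matched to symbols for 27745 of 28395 genes, and 7487 genes were at 0 in every library. Depth was 15784890 to 22631588 reads, and limits the precision of low genes. The labels do not say that libraries of a line came from separate cultures, so p-values measure only the spread between these samples. Genes at 10 or more in at least 2 libraries (14040) were fitted as log2(value + 1) with limma 3.58.1 in R 4.3.3 (trend, Benjamini-Hochberg adjustment over all tested genes, calls at 0.05). KO-labelled against control libraries used the line as a correlated block (correlation 0.33), and the other 4 comparisons used a mean per line and all 8 libraries. Replicate numbers paired the libraries by the data: deviations from the line means of same-numbered libraries correlated at r = 0.285 to 0.501 in all 6 pairs of lines, across genes, so blocked values are given beside members whose call they change and as counts for the pathway lists. Alternatives were other pseudocounts, filters and scaling, line means, leaving out each library, and edgeR 4.0.16 and DESeq2 1.42.0 on the recovered reads. Both count models were fitted with a mean per line and called 1474 and 1772 genes over the arms. Limma called 1474 with a mean per line and 33 with the line as a correlated block. The limma fits were also run on simulated reads with known changes and no replicate effect. That run cannot speak for calls that change with the replicate block. Named were TNFRSF9, then all tested members by role, with every library's value where called or with a mean of at least 100, members not tested by their highest value, and called genes of the pathway lists. The members and lists were chosen with earlier results of these data known. Promoter windows came from RefSeq (GRCh38.p14) for 26 of 41 members.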

Additional observations from a re-analysis of the deposited data

Results flagged for a closer look

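Of 44 groups of 4 libraries tested (22 members in each arm), 2 held a library far from the other 3, which chance gives for about 1 in 20 groups. TNFRSF25 reached 169 in the second library of ANXA4 KO-2, while the other KO-labelled libraries lay between 79.6 and 85.1. TNFSF4 reached 36.3 in the second library of Control 2, while the other control libraries lay between 19.3 and 21.5. Both are replicate 2 libraries, and TNFSF4 is a member whose call in ANXA4 KO-2 held without that library (adjusted p = 0.033).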

How the results depend on the processing

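The count of members called depended on the fit. Over the arms it was 1, but 9 with the mean per line and with edgeR, 8 with DESeq2, and 0 with the replicate block, over line means, in replicate 1 only and in replicate 2 only, the last pair chosen after seeing the data; leaving out 1 library gave 0 to 1. For ANXA4 KO-1 against the controls (6) it was 13 with the block and 0 to 8 without 1 library. For ANXA4 KO-2 (5) it was 11 with the block, 3 with no filter and 1 to 5 without 1 library. Control 2 against Control 1 (2) gave 9 with the block, 5 with DESeq2 and 0 to 3 without 1 library. Between the KO-labelled lines (0) it was 6 with the block, 2 with DESeq2, 1 with a filter at 50 and 0 without any 1 library. The calls over all genes changed with the fit as well. Of 14040 genes, DESeq2 called 655 between the controls (299 in limma) and 1394 between the KO-labelled lines (975 in limma). With no filter 1361 of 20908 genes were called for ANXA4 KO-2. A filter at 50 gave 943 of 11584 between the KO-labelled lines. Over line means, and in either replicate alone, 0 of 14040 genes were called between the arms. The cause was not tested. A line left with 1 library was assumed to vary like the others. Other pseudocounts (0.1 and 10), trimmed mean (TMM) scaling and the remaining filters kept these counts within 1.5 times. Over the arms 17 of 22 members kept their sign in every alternative run. The others were uncalled members near 0. In replicate 2 only the log2 change was 0.0429 for TNFRSF25, 0.124 for TNFSF12, -0.140 for TNFRSF6B and -0.0460 for TNFRSF21. Without 1 library it ran from -0.325 to 0.130 for TNFRSF25, -0.178 to 0.00486 for TNFSF12, -0.206 to 0.347 for TNFRSF6B and -0.312 to 0.0637 for TNFRSF12A. All 13 calls of a single line or between controls kept their sign, and the replicate block ended none of them. Depth limits members at a few reads, such as TNFRSF10C, TNFRSF6B and TNFSF14 in the controls.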
